A study of Mus musculus with 19 samples.

Results

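The genes described here encode the complement and coagulation proteins of mouse liver, chosen by name from a list of 37 factors and inhibitors, of which 19 belong to complement and 18 to coagulation and fibrinolysis. Serping1, which encodes the C1 inhibitor and also acts on the contact phase of coagulation, was counted with complement. A probe was named for 33 of the 37 genes, 16 of complement and 17 of coagulation, and all 33 were among the 9346 genes tested of 16593 with a named probe. The 4 others, C3, Cfd, Cfp and Cpb2, were not analysed here. Liver RNA from 19 mice was read on MouseRef-8 v2.0 beadchips of Illumina, a 1-colour array on which the brightness of a bead reports the amount of 1 transcript. Of the mice, 5 received AM251, an antagonist of the cannabinoid receptor CB1, at 10 mg/kg before IDFP at 10 mg/kg (AM251/IDFP), 8 received IDFP at 10 mg/kg alone (IDFP), and 6 received the vehicle DMSO (DMSO). IDFP blocks MAGL and FAAH, the enzymes that break down the endocannabinoids 2-AG and anandamide. All animals were male Swiss-Webster mice, an outbred stock, aged 7 weeks, fasted, injected i.p. with DMSO as the solvent in every group, and killed 4 h after treatment, and no group received AM251 alone. Every array holds a different mouse, so the spread given below includes differences between animals.

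Hepatocytes make and secrete most of the circulating complement and coagulation proteins. Complement is started by recognition molecules such as the mannose-binding lectins and their proteases, is amplified through the alternative pathway, and ends in the assembly of a membrane pore from the terminal components. Coagulation is a chain of serine proteases, several of which need vitamin K for their maturation, that makes thrombin and then fibrin, and it is held back by antithrombin, heparin cofactor II and the protein C system. Many of these genes are also known as acute-phase genes, whose hepatic mRNA moves with inflammation.

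Signals are normalized intensities on a linear scale, and changes are log2 fold changes from limma with their SE. A gene was called when its Benjamini-Hochberg adjusted p over all 9346 genes was at or below 0.05. The chosen probe of each of the 33 genes was detected on all 19 arrays. Summed hepatocyte markers overlapped between the 3 groups, with signals of 8 genes from 132141 to 141956 in AM251/IDFP, from 127480 to 143090 in IDFP and from 128440 to 141427 in DMSO. The brightest of these were Trf, Apoa1 and Cyp2e1, whereas the probe for Alb averaged only 380 in AM251/IDFP, 459 in IDFP and 437 in DMSO. Of the 8, the dim gene Tat was called higher in AM251/IDFP than in DMSO, by 1.60 ± 0.38 on the log2 scale (limma adjusted p = 0.0137). In bulk tissue, fewer cells of a type and less RNA per cell cannot be told apart.

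Few of the 33 genes changed. Between IDFP and DMSO, 3 of 33 were called (9.09%), F5 higher and F10 and Mbl1 lower, against a background of 16.3% of all genes tested, 6.75% higher and 9.53% lower. Between AM251/IDFP and IDFP, Pros1 alone was called (3.03%), and it was higher, against 10.8% of all genes, 5.97% higher and 4.85% lower. Between AM251/IDFP and DMSO, 2 of 33 were called (6.06%), Pros1 higher and F10 lower, against 9.88% of all genes, 3.66% higher and 6.22% lower. Among the 2527 genes whose probes were at least as bright as the dimmest member's, the shares called were 18.8% for IDFP vs. DMSO, 12% for AM251/IDFP vs. IDFP and 13.9% for AM251/IDFP vs. DMSO. Among the 356 genes at least as bright as the median member they were 12.1, 7.02 and 7.58%, closer to the members' shares. At an unadjusted p at or below 0.05, 9, 3 and 6 of the 33 genes passed in these comparisons, which is 27.3, 9.09 and 18.2% against 30.8, 24.0 and 24.6% of all genes. The members' shares were thus under those of all genes in each comparison at both thresholds. Only the shares called by adjusted p were nearer to those of the 356 brightest genes in each comparison. At the unadjusted p, 81, 53 and 76 of these 356 genes passed. The groups did not overlap for 0, 0 and 1 of the 33 genes, against 4.23, 4.6 and 4.88% of all genes. The median size of the log2 change, without its sign, was 0.11 for the 33 genes between IDFP and DMSO, 0.12 between AM251/IDFP and IDFP and 0.12 between AM251/IDFP and DMSO, against 0.15, 0.14 and 0.15 for all genes tested and 0.10, 0.09 and 0.11 for the 356 brightest. Any 2 of the 3 comparisons share the arrays of 1 group and are not independent of each other.

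**Figure D1:**
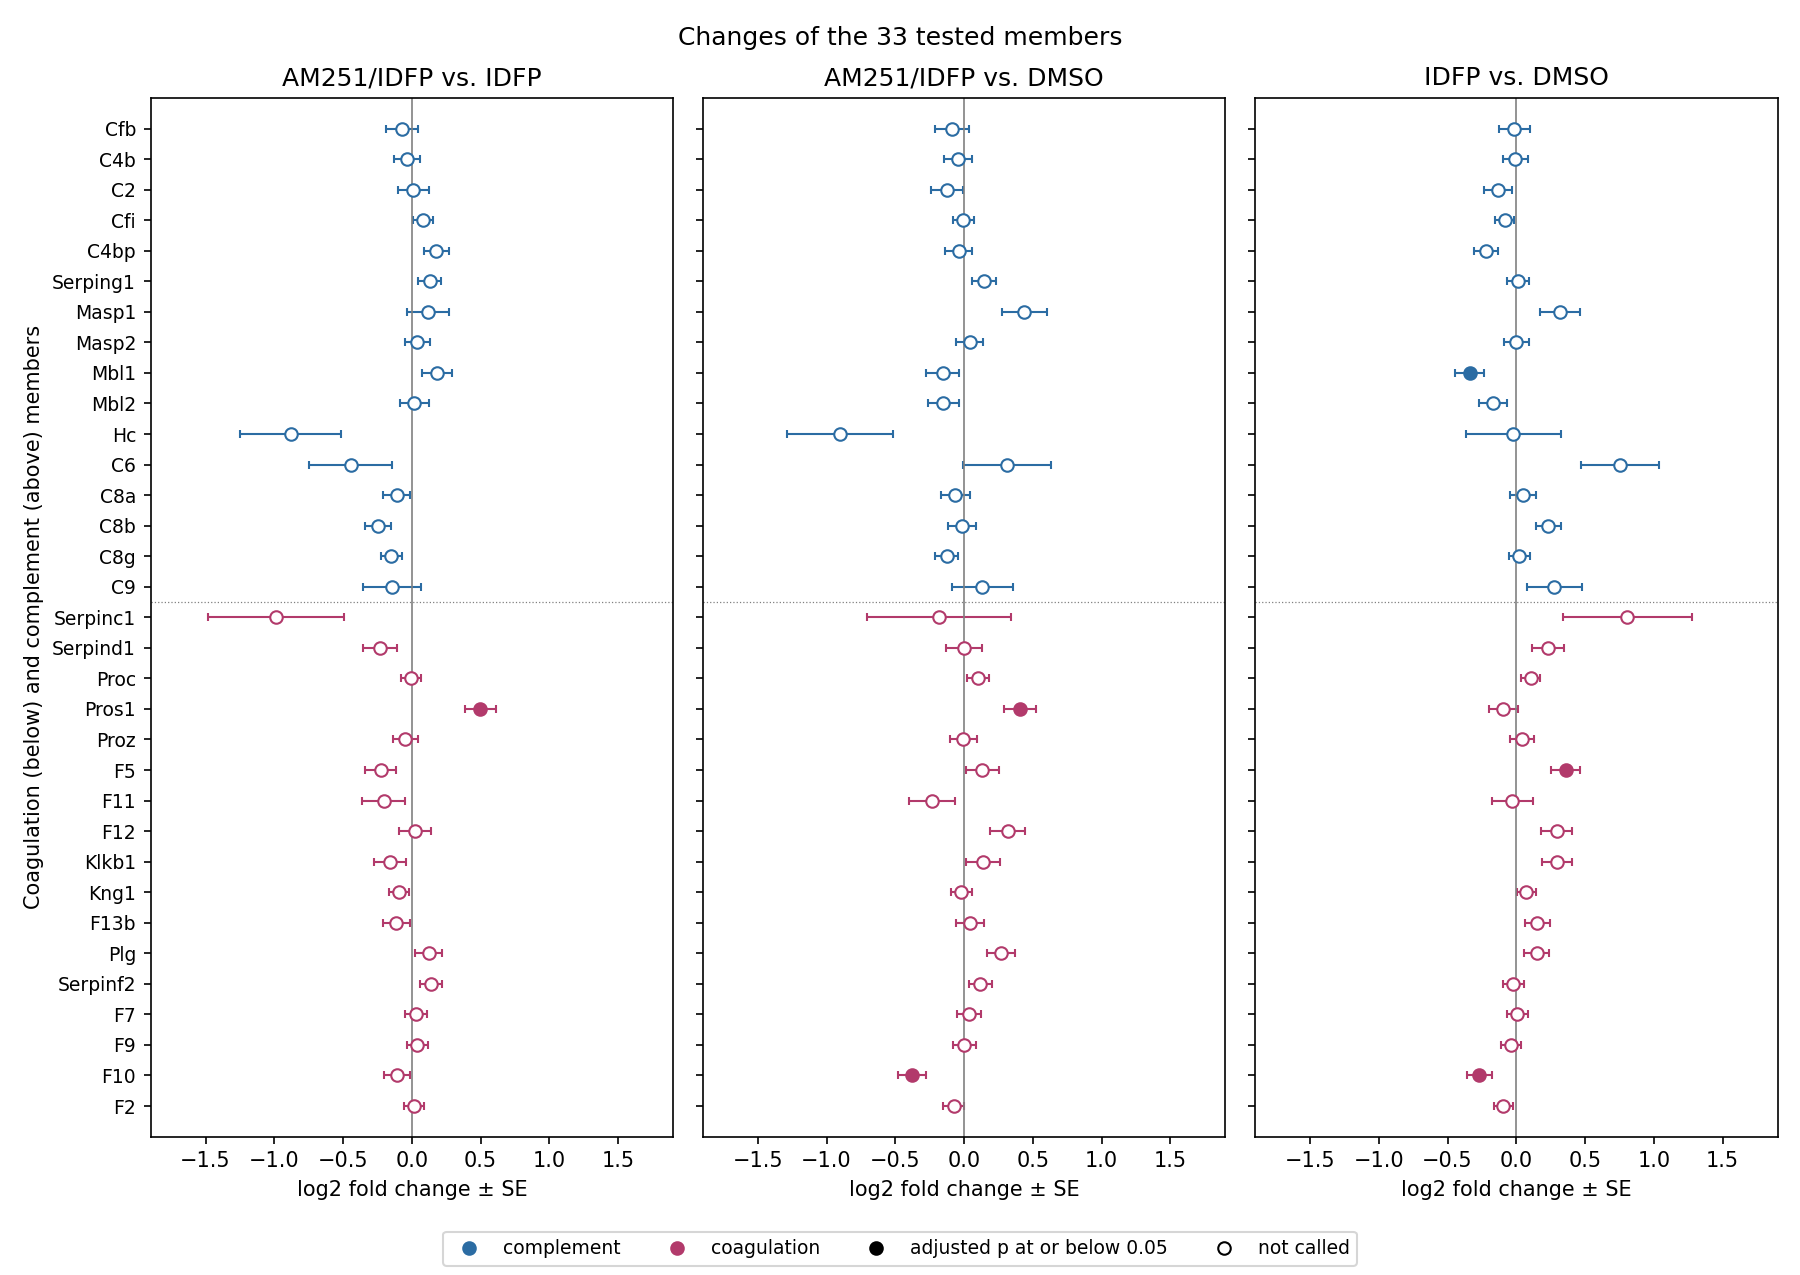
Log2 fold change ± SE of the 33 tested genes, complement above the dotted line and coagulation below, for AM251/IDFP vs. IDFP (left), AM251/IDFP vs. DMSO (middle) and IDFP vs. DMSO (right). Filled points passed the adjusted p of 0.05 and open points did not; 1, 2 and 3 points are filled, and most genes lie close to 0.

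The smallest adjusted p was that of Pros1, which encodes protein S, the cofactor of activated protein C and a brake on coagulation. Pros1 signals were 1557, 1765, 1689, 1815 and 1607 in the 5 AM251/IDFP mice, against a lowest of 1012, a median of 1122 and a highest of 1670 in IDFP mice. In DMSO mice the lowest was 1137, the median 1255 and the highest 1441. Every AM251/IDFP mouse thus lay above every DMSO mouse and above 7 of the 8 IDFP mice, and IDFP mouse 6, at 1670, lay within the range of the AM251/IDFP mice. Pros1 was higher in AM251/IDFP than in IDFP by 0.50 ± 0.11 on the log2 scale (1.41-fold, limma adjusted p = 0.00593), with 5 of 5 mice above the IDFP mean. It was higher in AM251/IDFP than in DMSO by 0.41 ± 0.12 (1.32-fold, limma adjusted p = 0.0343). Groups that do not overlap, with AM251/IDFP higher, were seen for 2.05% of all genes in that comparison. Between IDFP and DMSO the log2 change of Pros1 was -0.09 ± 0.11 and was not called (limma adjusted p = 0.597). The call against IDFP held in all 29 alternative settings, whereas the call against DMSO was lost in 7 of 29. These were the setting without a detection filter and those without AM251/IDFP mouse 2, 3 or 4 or DMSO mouse 2, 3 or 5, with log2 changes of 0.37 or more and a limma adjusted p of up to 0.0835.

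F10, which encodes the zymogen of factor X, the protease that turns prothrombin into thrombin, was the only member called lower in both treated groups than in DMSO. F10 signals were 6654, 7987, 8589, 7352 and 9173 in AM251/IDFP mice. In IDFP mice the lowest was 7373, the median 8436 and the highest 10065, and in DMSO mice the lowest was 9070, the median 10145 and the highest 11888. AM251/IDFP mice 1 to 4 lay below every DMSO mouse, and all 8 IDFP mice lay below the DMSO mean. The log2 change was -0.38 ± 0.10 in AM251/IDFP vs. DMSO (0.771-fold, limma adjusted p = 0.0253) and -0.27 ± 0.09 in IDFP vs. DMSO (0.830-fold, limma adjusted p = 0.0497). Between AM251/IDFP and IDFP it was -0.11 ± 0.10 and was not called (limma adjusted p = 0.552). The IDFP vs. DMSO call sat at the threshold and was lost in 17 of 29 settings, with a limma adjusted p of up to 0.133 and log2 changes from -0.30 to -0.23. Among them were those without AM251/IDFP mouse 2, 3 or 4, IDFP mouse 1, 2, 3, 4, 5 or 8, or DMSO mouse 2, 3, 4 or 5. The AM251/IDFP vs. DMSO call was lost in 7 of 29, among them those without AM251/IDFP mouse 1, 2 or 4 or DMSO mouse 3 or 5, with log2 changes from -0.43 to -0.31 over the settings and a limma adjusted p of up to 0.0651.

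The promoters of these 2 genes, which were each called in 2 comparisons and in opposite directions, are shown as RefSeq gives them on GRCm38.p6, from 250 bases before the transcript start to 50 after it. Capitals mark a match, on either strand, to 1 of 3 motifs of liver transcription factors that were searched, TTCNNNGAA (STAT), CAAAGTNCA (HNF4) and TTGCNNAA (C/EBP).
Pros1, chr16:62854057-62854356, plus strand: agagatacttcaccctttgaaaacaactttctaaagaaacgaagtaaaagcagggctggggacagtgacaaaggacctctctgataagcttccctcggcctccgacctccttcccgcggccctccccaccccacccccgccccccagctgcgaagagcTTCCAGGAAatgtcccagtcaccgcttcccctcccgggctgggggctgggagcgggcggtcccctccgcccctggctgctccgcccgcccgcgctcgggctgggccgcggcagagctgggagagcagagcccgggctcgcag
F10, chr8:13037058-13037357, plus strand: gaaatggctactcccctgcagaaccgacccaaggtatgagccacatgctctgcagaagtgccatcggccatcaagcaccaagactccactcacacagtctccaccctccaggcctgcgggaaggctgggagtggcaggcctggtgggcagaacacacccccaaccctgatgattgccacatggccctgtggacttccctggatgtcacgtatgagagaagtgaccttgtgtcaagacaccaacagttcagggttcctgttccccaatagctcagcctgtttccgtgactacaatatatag
Pros1 had 1 match, to the STAT motif, from base -92 to base -84 before the start, and F10 had none, nor had F5 or Mbl1. The table held 25 promoters of 24 members, of which 4 held the STAT motif (16%), 2 the HNF4 motif (8.0%) and 5 the C/EBP motif (20%), against 8.30, 1.41 and 10.8% of all 32851 promoters. A match is a run of letters and not a measured site, and no factor binding was measured in these mice.

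F5 was the only member higher in IDFP than in DMSO by the adjusted p. It encodes factor V, the cofactor with which factor Xa makes thrombin. F5 signals had a lowest of 904, a median of 1009 and a highest of 1362 in IDFP mice, against a lowest of 644, a median of 827 and a highest of 917 in DMSO mice. The ranges overlapped only at 904 to 917, and all 8 IDFP mice lay above the DMSO mean. F5 rose by 0.36 ± 0.11 on the log2 scale (1.28-fold, limma adjusted p = 0.0260). In AM251/IDFP mice the signals were 803, 864, 821, 1150 and 814, so that mouse 4 stood above the other 4. Against IDFP the log2 change was -0.22 ± 0.11 (limma adjusted p = 0.233) and against DMSO 0.13 ± 0.12 (limma adjusted p = 0.538), and neither was called. The F5 call was lost in 3 of 29 settings, without DMSO mouse 3 (0.34, limma adjusted p = 0.0581), without DMSO mouse 5 (0.29, limma adjusted p = 0.0826) and with the replicate number as a block (0.32, limma adjusted p = 0.0597).

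Of complement, Mbl1 alone was called in any comparison. It encodes mannose-binding lectin A, a recognition molecule of the lectin pathway. Mbl1 signals had a lowest of 5202, a median of 5746 and a highest of 6563 in IDFP mice, against a lowest of 6197, a median of 7250 and a highest of 9001 in DMSO mice. All 8 IDFP mice lay below the DMSO mean, with an overlap of the ranges between 6197 and 6563. Mbl1 fell by 0.34 ± 0.11 on the log2 scale (0.791-fold, limma adjusted p = 0.0319), and the call was lost in 7 of 29 settings. Among these were those without IDFP mouse 2, 3 or 8 or DMSO mouse 4 or 5, with log2 changes of -0.28 or lower and a limma adjusted p of up to 0.0991. In AM251/IDFP mice the signals were 6963, 6317, 5251, 5926 and 8738 and overlapped with both other groups, with log2 changes of 0.18 ± 0.11 against IDFP (limma adjusted p = 0.343) and -0.16 ± 0.12 against DMSO (limma adjusted p = 0.453). Mbl2, which encodes the second mouse mannose-binding lectin, had a log2 change of -0.17 ± 0.10 between IDFP and DMSO and was not called (limma adjusted p = 0.269).

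**Figure D2:**
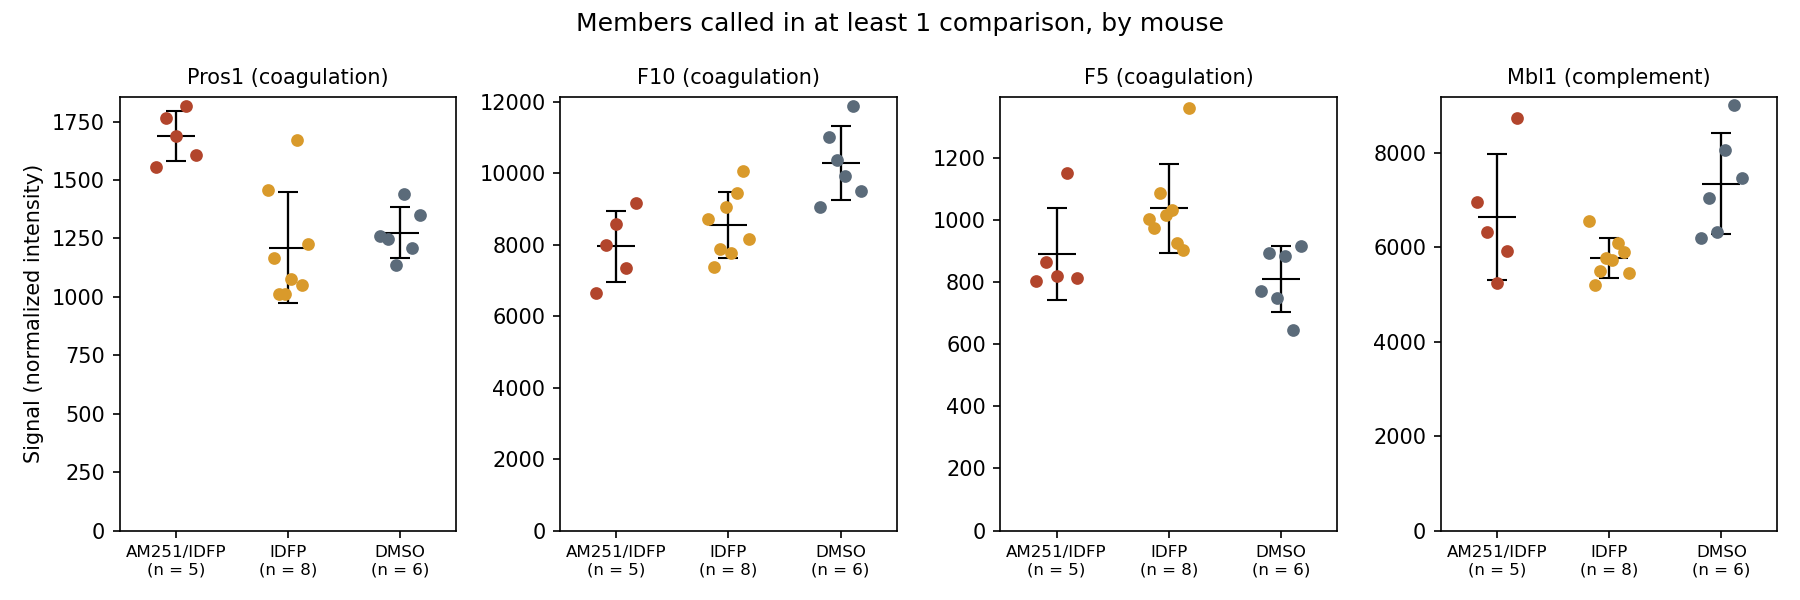
Signals (normalized intensity, axes from 0) of Pros1, F10, F5 and Mbl1 in every AM251/IDFP (n = 5), IDFP (n = 8) and DMSO (n = 6) mouse, with the mean and SD as black lines. Pros1 stood at 1557 to 1815 in AM251/IDFP mice, above all DMSO mice, and F10 was lower in both treated groups than in DMSO.

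None of the remaining members of the complement initiating and amplifying steps was called, and the largest changes among them were those of Masp1. Masp1, which encodes a protease of the lectin pathway, had signals of 2420, 3094, 2490, 3555 and 3004 in AM251/IDFP mice and a lowest of 2248, a median of 2712 and a highest of 3081 in IDFP mice. DMSO mice 3, 4 and 5 had 1584, 1811 and 1571, and the other 3 had between 2463 and 3167. The log2 change of Masp1 was 0.44 ± 0.16 in AM251/IDFP vs. DMSO (limma adjusted p = 0.0975) and 0.32 ± 0.15 in IDFP vs. DMSO (limma adjusted p = 0.144), and neither passed. Without DMSO mouse 6, the brightest DMSO mouse for Masp1, both were called (limma adjusted p = 0.0222 and 0.0333). C2 and C4b, which together form the convertase of the classical and lectin pathways, and Cfb, the protease of the alternative convertase, had log2 changes between -0.13 and 0.01 in the 3 comparisons. Masp2, the protease that cleaves C4 and C2 in the lectin pathway, had 0.04 against both IDFP and DMSO in AM251/IDFP mice. Its dimmer probes had larger changes that did not pass, 0.20 and 0.31 against IDFP and 0.20 and 0.32 against DMSO.

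The terminal components C5 (gene Hc), C6, C8a, C8b, C8g and C9 build the membrane attack pore. None of the 6 genes was called by limma in any comparison, and an unadjusted p at or below 0.05 was seen for 2 genes between IDFP and DMSO, for 2 between AM251/IDFP and IDFP, and for 1 between AM251/IDFP and DMSO. With 6 genes, these are 33.3, 33.3 and 16.7%, near the 30.8, 24.0 and 24.6% of all genes. All 6 had negative log2 changes in AM251/IDFP vs. IDFP, from -0.88 for Hc to -0.11 for C8a with a median of -0.20, and 5 of 6 had positive ones in IDFP vs. DMSO, with a median of 0.14, while the median over all genes tested was -0.01 in AM251/IDFP vs. IDFP and close to 0 in IDFP vs. DMSO. C6 had signals of 941, 1065, 542, 1321 and 614 in AM251/IDFP mice. In IDFP mice the lowest was 640, the median 1180 and the highest 2152, and in DMSO mice the lowest was 448, the median 604 and the highest 1411. IDFP and DMSO mice thus overlapped widely, although 7 of 8 IDFP mice lay above the DMSO mean on the log2 scale. The log2 change of C6 in IDFP vs. DMSO was 0.75 ± 0.29 (1.69-fold, limma adjusted p = 0.0748), and it was called in 4 of 29 settings, namely with array weights (0.81, limma adjusted p = 0.0480), with the replicate block (0.99, limma adjusted p = 0.0128), without IDFP mouse 7 (0.88, limma adjusted p = 0.0391) and without DMSO mouse 1, the brightest DMSO mouse (0.96, limma adjusted p = 0.0186). C8b had a change of 0.23 ± 0.09 in IDFP vs. DMSO (limma adjusted p = 0.0815) and of -0.25 ± 0.10 in AM251/IDFP vs. IDFP (limma adjusted p = 0.105).

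Hc signals in AM251/IDFP mice were 801, 361, 334, 379 and 357, so that 4 of 5 lay below every DMSO mouse and mouse 1 stood apart. In IDFP mice the lowest was 355, the median 830 and the highest 1866, with IDFP mice 5 and 8 at 355 and 356, and in DMSO mice the lowest was 487, the median 757 and the highest 1773. The log2 change was -0.88 ± 0.36 against IDFP (limma adjusted p = 0.134) and -0.90 ± 0.39 against DMSO (limma adjusted p = 0.150), and neither passed. In AM251/IDFP mouse 3 all 6 terminal genes were at the lowest level of their group. This mouse also had the highest summed signal of 4 neutrophil markers of all 19 mice, 6710 against 1280 to 1947 in the other 4 AM251/IDFP mice, and of 5 platelet markers, 1073 against 446 to 517. The part of these cells in the terminal genes' values was not tested. Without mouse 3 the log2 change in AM251/IDFP vs. IDFP was -0.80 ± 0.40 for Hc (limma adjusted p = 0.264) and -0.28 ± 0.32 for C6 (limma adjusted p = 0.688).

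The complement inhibitors Cfi, C4bp and Serping1, which encode factor I, the C4b-binding protein and the C1 inhibitor, were not called. C4bp was the closest, with a log2 change of -0.22 ± 0.09 in IDFP vs. DMSO (limma adjusted p = 0.0940; -0.28 and 0.0303 without DMSO mouse 3) and of 0.18 ± 0.09 in AM251/IDFP vs. IDFP, where 5 of 5 mice lay above the IDFP mean (limma adjusted p = 0.249). C4bp signals were 6341, 7045, 5878, 5633 and 6209 in AM251/IDFP mice, with a median of 5607 in IDFP mice and of 6541 in DMSO mice, and all 3 groups overlapped. Cfi varied least of the 33 genes, with a within-group SD of 0.09 on the log2 scale and signals from 11522 to 14743 over all 19 mice.

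On the coagulation side, the vitamin K-dependent zymogens other than F10, namely F2 (prothrombin), F7 and F9, were not called and their log2 changes lay between -0.09 and 0.04 in the 3 comparisons. F2 signals ranged from 10812 to 14555 over the 19 mice. F7, the zymogen that tissue factor activates, ranged from 823 to 1085. The neighbours F7, F10 and Proz follow each other on chromosome 8 in the RefSeq annotation of GRCm38.p6, and of these F10 alone was called.

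The contact phase is made of F12, Klkb1 (prekallikrein), F11 and Kng1 (kininogen). None of the 4 was called by limma, and an unadjusted p at or below 0.05 was seen for 2 genes between IDFP and DMSO, for 0 between AM251/IDFP and IDFP, and for 1 between AM251/IDFP and DMSO. Over all genes the shares at that threshold were 30.8, 24.0 and 24.6%. In IDFP vs. DMSO, F12 and Klkb1 were above the DMSO mean in 8 of 8 IDFP mice. F12 signals were 6304, 5926, 6981, 6946 and 6563 in AM251/IDFP mice, and in IDFP mice the lowest was 5719, the median 6467 and the highest 7563. DMSO mice 3, 4 and 5, which were also the lowest for Masp1, had 4197, 4712 and 4014, and the others had 6069, 6341 and 6801. The log2 change of F12 was 0.32 ± 0.12 in AM251/IDFP vs. DMSO (limma adjusted p = 0.113) and 0.29 ± 0.11 in IDFP vs. DMSO (limma adjusted p = 0.0748). Without DMSO mouse 6 both were called, at 0.39 (limma adjusted p = 0.0367) and 0.37 (limma adjusted p = 0.0225), and without DMSO mouse 2 that in IDFP vs. DMSO was, at 0.35 (limma adjusted p = 0.0436). A second F12 probe gave 0.36 ± 0.11 in AM251/IDFP vs. DMSO and passed when p was adjusted over all detected probes (limma adjusted p = 0.0397), and another gave 0.34 ± 0.16 (limma adjusted p = 0.213). Klkb1 had a log2 change of 0.30 ± 0.11 in IDFP vs. DMSO (1.23-fold, limma adjusted p = 0.0707) and was called without AM251/IDFP mouse 1, IDFP mouse 6 or DMSO mouse 2 (limma adjusted p = 0.0484, 0.0495 and 0.0452). Plg, which encodes plasminogen, the zymogen of the protease that dissolves fibrin, had 0.27 ± 0.10 in AM251/IDFP vs. DMSO with 5 of 5 mice above the DMSO mean (limma adjusted p = 0.101). Its inhibitor Serpinf2 and the fibrin-crosslinking subunit F13b were not called.

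Of the anticoagulants other than Pros1, Serpinc1 (antithrombin), Serpind1 (heparin cofactor II), Proc (protein C) and Proz were not called. Serpinc1 varied most of all members. Its signals in AM251/IDFP mice were 2406, 401, 2590, 693 and 2272. In IDFP mice the lowest was 1826, the median 2347 and the highest 4576, and in DMSO mice the lowest was 546, the median 1641 and the highest 4641. The low mice, AM251/IDFP 2 and 4 and DMSO 5 and 6, stood in 2 groups, and no IDFP mouse was among them. The log2 change was -0.99 ± 0.49 in AM251/IDFP vs. IDFP (limma adjusted p = 0.230) and 0.81 ± 0.47 in IDFP vs. DMSO (limma adjusted p = 0.256). A second Serpinc1 probe, with a mean signal of 1047, went the other way in IDFP vs. DMSO, with -0.25 ± 0.11 (limma adjusted p = 0.134 over all probes). In the other comparisons both Serpinc1 probes were negative, and the second had -0.42 ± 0.12 in AM251/IDFP vs. DMSO (limma adjusted p = 0.0398 over all probes), where the first had -0.18 ± 0.52. The direction for antithrombin mRNA in IDFP vs. DMSO therefore depends on the probe.

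**Figure D3:**
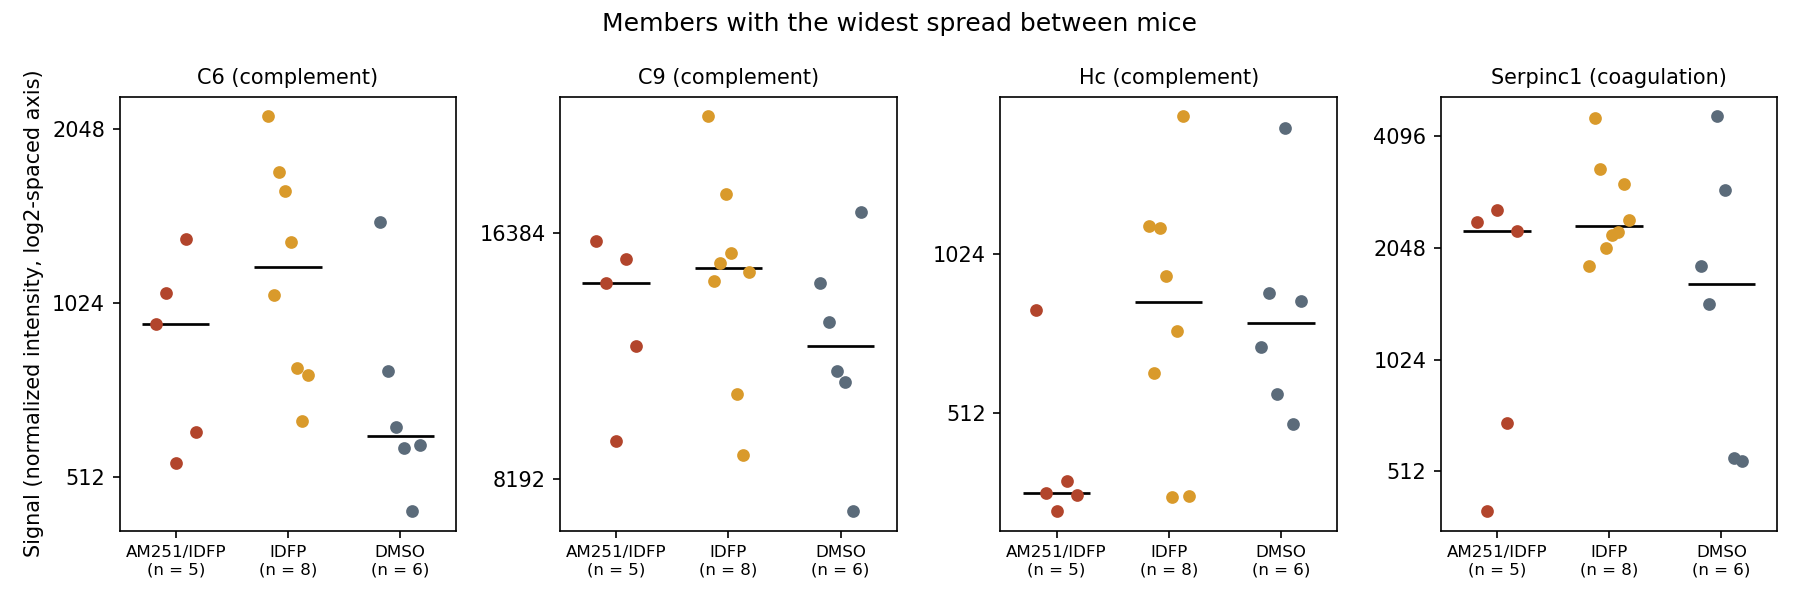
Signals of C6, C9, Hc and Serpinc1, the 4 members with the widest spread within groups, in every AM251/IDFP, IDFP and DMSO mouse on a log2-spaced axis that does not start at 0, with the group median as a line. The 3 groups overlap for each gene; 4 of 5 AM251/IDFP mice lie between 334 and 379 for Hc.

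The within-group SD on the log2 scale, pooled over the 3 groups, had a median of 0.17 for the 16 complement genes and of 0.16 for the 17 coagulation genes. It was 0.40 for C9, 0.59 for C6, 0.72 for Hc and 0.98 for Serpinc1, and 0.29 or less for the other 29 genes. From the lowest to the highest of the 19 mice, Serpinc1 spanned 11.6-fold, Hc 5.59-fold, C6 4.80-fold and C9 3.04-fold, against 1.28-fold for Cfi and 1.28-fold for Kng1. The SE of the IDFP vs. DMSO change was 0.20 for C9, 0.29 for C6, 0.35 for Hc and 0.47 for Serpinc1, and between 0.07 and 0.15 for the other 29 genes, so that only larger differences could be called for these 4.

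Complement and coagulation were then set against each other. The median log2 change of the complement genes was -0.01 in AM251/IDFP vs. IDFP, -0.04 in AM251/IDFP vs. DMSO and -0.0038 in IDFP vs. DMSO. That of the coagulation genes was -0.05 in AM251/IDFP vs. IDFP, 0.04 in AM251/IDFP vs. DMSO and 0.07 in IDFP vs. DMSO. Over all genes tested it was -0.01 in AM251/IDFP vs. IDFP, -0.01 in AM251/IDFP vs. DMSO and -0.00095 in IDFP vs. DMSO. Both classes thus lay close to the median of all genes. In each mouse, the mean deviation of the complement genes from the DMSO mean, minus that of the coagulation genes, was -0.02, 0.05, -0.31, -0.03 and -0.08 in AM251/IDFP mice. In IDFP mice the lowest was -0.33, the median -0.05 and the highest 0.11, and in DMSO mice the lowest was -0.20, the median 0.01 and the highest 0.14. The 3 groups overlapped, and AM251/IDFP mouse 3 and IDFP mouse 8 had the 2 lowest values. These means weigh the most variable genes heavily. With medians over the genes in place of means, the difference was -0.14 in AM251/IDFP mouse 3 and -0.16 in IDFP mouse 8, and IDFP mouse 5 was lowest at -0.20. For coagulation alone, by the mean, all 8 IDFP mice lay above 0, from 0.02 to 0.19, as did 4 of 5 AM251/IDFP mice and 4 of 6 DMSO mice, and DMSO mouse 5 was lowest at -0.22. By the median over the genes, IDFP mice lay between 0.05 and 0.19 and AM251/IDFP mice between -0.0083 and 0.06. DMSO mice 1, 4 and 5 then lay below 0, at -0.02, -0.02 and -0.19.

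**Figure D4:**
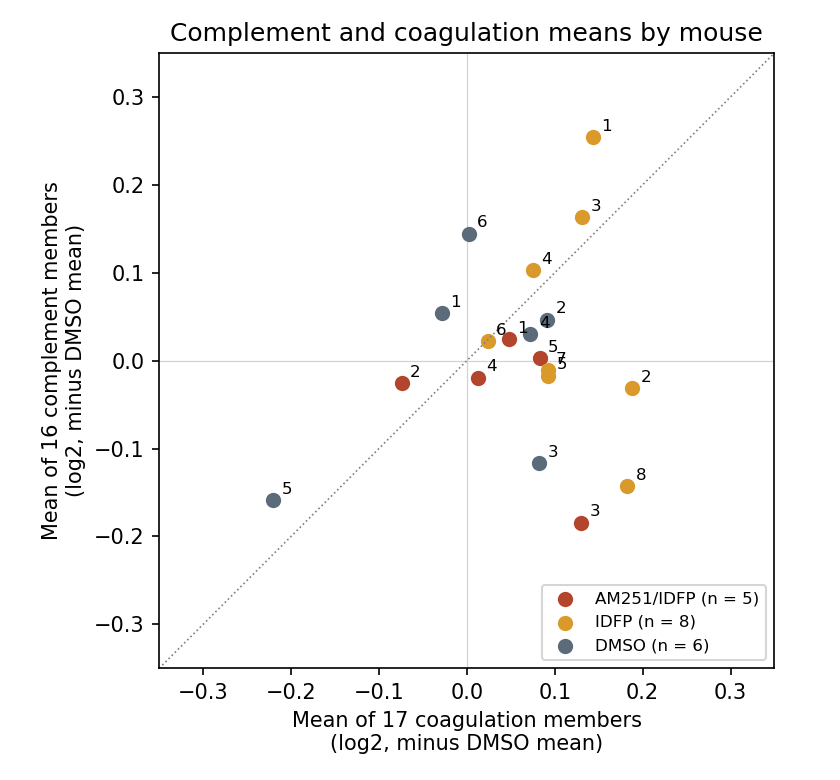
Mean log2 deviation from the DMSO mean of the 16 complement genes (vertical) and of the 17 coagulation genes (horizontal) in every mouse, numbered within its group, with the line of equal means dotted. The groups overlap; the 8 IDFP mice lie between 0.02 and 0.19 on the coagulation axis and between -0.14 and 0.25 on the complement axis.

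Some pairs of members deviated together between mice of the same group, and others in opposite directions. Over the 528 pairs of genes, Pearson's r of the deviations from the group means, across 19 mice that share their arrays and their normalization, had a median of 0.13 for complement pairs, 0.06 for coagulation pairs and 0.05 for mixed pairs. In size it exceeded 0.7 for 10 pairs, 2 of complement, 3 of coagulation and 5 mixed. This is 1.89% of pairs, against 1.66% of the pairs among the 356 brightest genes and 0.832% of those among all genes tested. The members' share was thus near that of the brightest genes and above that of all genes. The median r over all member pairs was 0.06, against -0.0030 among the 356 brightest genes and 0.0016 among all genes tested. The terminal genes C8b and C8g had r = 0.77, and C6 and C9 r = 0.76. F12 and Plg had r = 0.82, F5 and Klkb1 r = 0.81, and Masp1 and Proz r = 0.79. The strongest opposite pairs were F2 and F5 with r = -0.80 and F11 and Mbl2 with r = -0.77. For these 7 pairs, r without any single mouse stayed at 0.72 or above for the positive pairs and at -0.58 or below for the opposite pairs. It also stayed at 0.73 or above for Klkb1 and Masp1 (r = 0.75). By contrast, it fell as low as 0.64 for Cfb and F2 (r = 0.75) and 0.62 for F12 and Masp1 (r = 0.71). For members that follow each other on a chromosome in GRCm38.p6, r was 0.49 for Cfb and C2, 0.43 for C8b and C8a, 0.46 for F11 and Klkb1, -0.19 for F7 and F10 and -0.40 for F10 and Proz.

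**Figure D5:**
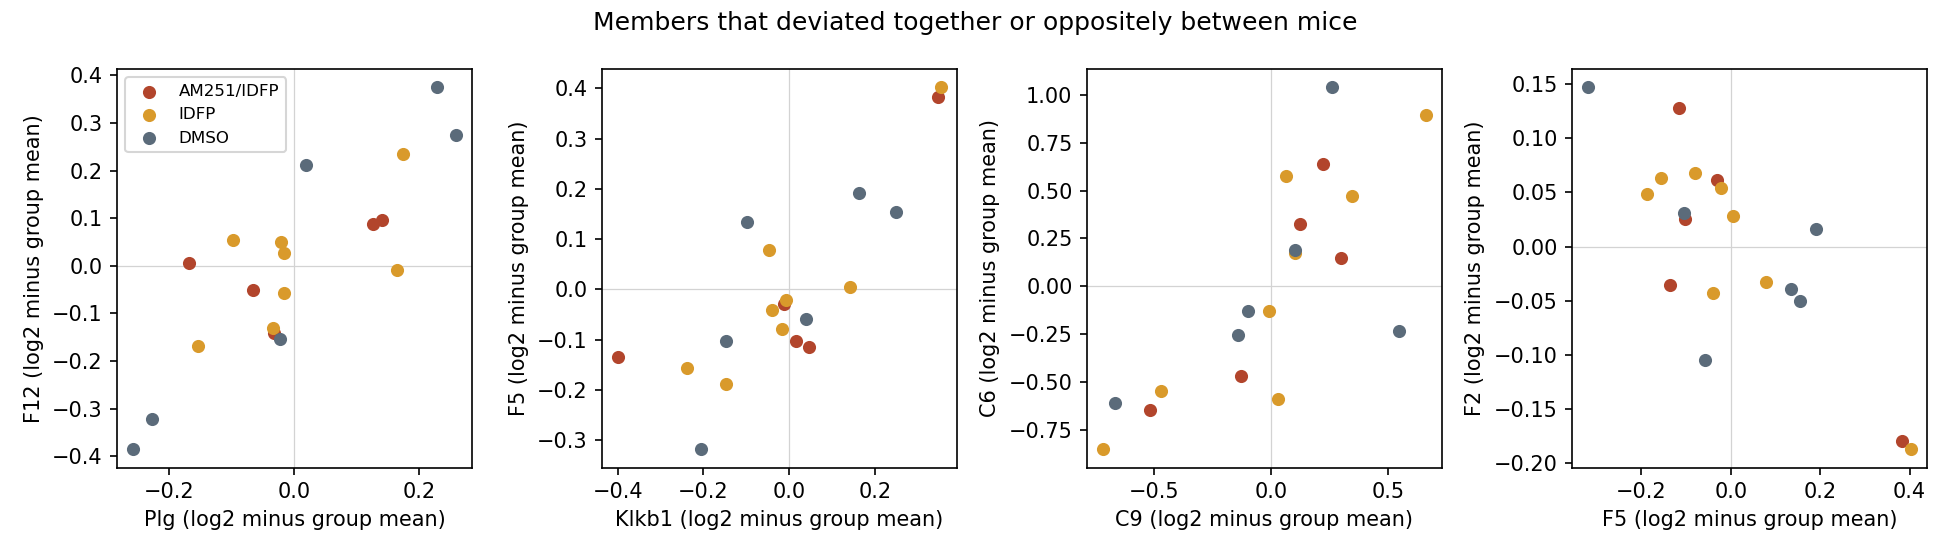
Deviation of the log2 signal from the group mean in every mouse for 4 pairs of members, Plg and F12, Klkb1 and F5, C9 and C6, and F5 and F2, coloured by group. The first 3 pairs deviate together (r = 0.82, 0.81 and 0.76) and F2 deviates opposite to F5 (r = -0.80), across 19 mice.

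Other genes of the same pathways were read from wider lists. Of the other coagulation and fibrinolysis genes, 25 of 34 listed were tested, and 3 were higher and 1 lower in IDFP vs. DMSO, which is 16% against 16.3% of all genes. The lower one was Serpina10, which encodes the protein Z-dependent inhibitor of factor Xa, with a signal of 15674 ± 1504 in AM251/IDFP (SD, n = 5), 10010 ± 773 in IDFP (n = 8) and 19757 ± 2954 in DMSO (n = 6). Its log2 change was -0.97 ± 0.09 in IDFP vs. DMSO (limma adjusted p = 1.28e-06) and 0.65 ± 0.10 in AM251/IDFP vs. IDFP (limma adjusted p = 0.000268), with no overlap between the groups in either, whereas its partner Proz had 0.04 ± 0.09 and -0.05 ± 0.09 and was not called. The higher ones were S100a10, a plasminogen-binding partner of annexin A2, by 0.57 ± 0.13 (limma adjusted p = 0.00575), Serpina5, the protein C inhibitor, and Tpst2, a tyrosylprotein sulfotransferase. In AM251/IDFP vs. IDFP, Serpina10 was higher and S100a10 lower (-0.58 ± 0.14, limma adjusted p = 0.00994), 8% of the 25 genes against 10.8% of all genes. Groups did not overlap for 2 of the 25 genes in IDFP vs. DMSO, against 4.23% of all genes. In AM251/IDFP vs. IDFP this was 1 of the 25, against 4.6% of all genes. Thbd, which encodes thrombomodulin, the endothelial receptor that lets thrombin activate protein C, was higher in AM251/IDFP than in DMSO by 1.24 ± 0.32 (limma adjusted p = 0.0199), and Serpina10 was lower by a log2 change of -0.33 ± 0.10 (limma adjusted p = 0.0469). These 2 calls are 8% of the 25 genes, against 9.88% of all genes.

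Of the other complement genes, 16 of 34 were tested. In IDFP vs. DMSO, 2 were higher, Cd59b, an inhibitor of pore assembly, by 0.29 ± 0.08 (limma adjusted p = 0.0129) and Cd93, a membrane protein of endothelial and myeloid cells once named a C1q receptor, by 0.40 ± 0.11 (limma adjusted p = 0.0178), and 0 were lower, so that 12.5% were called against 16.3% of all genes. None was called by limma in AM251/IDFP vs. IDFP, where 3 had an unadjusted p at or below 0.05 (18.8% against 24.0% of all genes), and Cd93 was higher in AM251/IDFP than in DMSO by 0.62 ± 0.13 (limma adjusted p = 0.00595). Of 18 listed liver transcription factors, 13 were tested, and 5 were lower and 2 higher in IDFP vs. DMSO, which is 53.8% against 16.3% of all genes. The list was chosen with earlier results of these data known. Stat3, which carries the acute-phase signal of interleukin 6, fell by 1.01 ± 0.15 (limma adjusted p = 9.64e-05), and Nr1h4, the bile acid receptor FXR, fell by 0.97 ± 0.10 (limma adjusted p = 2.84e-06). Hnf4a, a main regulator of hepatocyte genes, had -0.43 ± 0.13 (limma adjusted p = 0.0237), and Cebpb, a factor of the acute-phase response, rose by 1.03 ± 0.19 (limma adjusted p = 0.000995). In AM251/IDFP vs. IDFP, Stat3 was higher by 0.93 ± 0.15 (limma adjusted p = 0.000683), Foxa2 by 0.64 ± 0.12 (limma adjusted p = 0.00134) and Hnf4a by 0.46 ± 0.13 (limma adjusted p = 0.0307). Cebpa had a log2 change of -0.82 ± 0.24 (limma adjusted p = 0.0291), so that 3 were higher and 1 lower, 30.8% against 10.8% of all genes. In AM251/IDFP vs. DMSO, 1 was higher, Cebpb, and 2 were lower, Nr1h4 and Foxa3, 23.1% against 9.88% of all genes.

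Markers of other cells were read for the same arrays. Of 4 tested neutrophil markers, 3 were higher in AM251/IDFP than in DMSO, namely S100a8, S100a9 and Retnlg, which is 75% against 9.88% of all genes called. Summed signals of the 4 were 1280 to 6710 in AM251/IDFP, 837 to 1543 in IDFP and 529 to 1368 in DMSO. The sums of AM251/IDFP mice overlapped with those of IDFP mice and with those of DMSO mice. Without AM251/IDFP mouse 3, the highest for these markers, the log2 change of Pros1 was 0.50 ± 0.12 against IDFP (limma adjusted p = 0.0181) and 0.40 ± 0.13 against DMSO (limma adjusted p = 0.0682), and the second was no longer called. Summed platelet markers, of which 0 of 5 tested were called in any comparison and Pf4 was the brightest, ranged from 446 to 1073 in AM251/IDFP, from 512 to 583 in IDFP and from 391 to 481 in DMSO. Of 7 endothelial markers, Clec4g was lower in AM251/IDFP and in IDFP than in DMSO, and Lyve1 was higher in AM251/IDFP than in IDFP. This is 14.3% called in each comparison. Over all genes it was 16.3% in IDFP vs. DMSO, 10.8% in AM251/IDFP vs. IDFP and 9.88% in AM251/IDFP vs. DMSO. Most endothelial markers went against the named ones in 2 comparisons. Log2 changes were positive for 5 of 7 in IDFP vs. DMSO (median 0.05). They were negative for 5 of 7 in AM251/IDFP vs. IDFP (median -0.07) and for 4 of 7 in AM251/IDFP vs. DMSO (median -0.03). Of 9 Kupffer and macrophage markers, 2 were called, Timd4 and Clec4f, both lower in AM251/IDFP than in IDFP (22.2% against 10.8% of all genes). By contrast, Marco had a log2 change of 0.66 ± 0.22 in that comparison (limma adjusted p = 0.0619). Single markers were also called in lists of other cells, Cidec of adipocytes (0.94 ± 0.20, limma adjusted p = 0.00322) and Cd3e of lymphocytes (-0.34 ± 0.11, limma adjusted p = 0.0427) in IDFP vs. DMSO, and Lrat of stellate cells (-0.91 ± 0.24, limma adjusted p = 0.0154) in AM251/IDFP vs. IDFP. They were 1 of 2 adipocyte, 1 of 3 lymphocyte and 1 of 8 stellate and fibroblast markers tested. Against the direction of Cd3e, 2 of the 3 lymphocyte markers had positive log2 changes in IDFP vs. DMSO, of 0.0019 and 0.14. The part of these cells in the members' values was not tested.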

How the data were processed

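Hepatic RNA of 19 mice was measured on 1-colour arrays. Before deposit, the authors subtracted the background from the intensities and quantile normalized them (BeadStudio 3.2), which left 30.1% of the linear values below 0. A genome build is not given in the sources used here. A second table with 38 columns of unprocessed values names chips and not mice, and was not used, so chips were not tested.

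Detection required more than 17.5 to 17.6 units, 1.64 times the background SD of each array from its values below 0, on most arrays of at least 1 group. This replaced the planned detection p-values. Values were corrected with normexp (offset 16), put on log2 and quantile normalized. A gene was read through its brightest detected probe. A linear model with moderated variances (limma 3.58.1, R 4.3.3) was fitted over 3 groups, and p-values were adjusted by Benjamini-Hochberg over 9346 genes. Python 3.11.15 drew the plots. The number of arrays limits the precision. The linear model and its adjusted p-values were tested on simulated log2 values, and the steps before the model were not.

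The rule for named genes takes every member, with values per mouse for those called, up to 4 genes of each wider list by p and the 3 brightest of each marker list. Markers outside this rule were named after their values were seen, mostly because they were called. C6, C8b, C4bp, Hc, C9, Serpinc1, Masp1, F12, Klkb1 and Plg were given in more detail after their values were seen. The members and lists were chosen with earlier results of these data known. Alternatives were an offset of 50, a floor of 10 units, median scaling, a stricter and no detection filter, averaging over probes, eBayes with trend, array weights, fitting 2 groups alone, a block by replicate number, and omission of each array.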

Additional observations from a re-analysis of the deposited data

Results flagged for a closer look

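Among 99 combinations of a gene and a group, 6 held 1 mouse that stood far from the others by Dixon's test, which chance does in about 1 group of 20. In AM251/IDFP, mouse 1 was highest for Hc at 801, with the next mouse at 379. AM251/IDFP mouse 4 was highest for F5 at 1150, with the next at 864, and lowest for Serpind1 at 3477, with the next at 4704. In IDFP, mouse 8 was highest for F5 at 1362, with the next at 1088, and lowest for F2 at 10812, with the next at 11948. IDFP mouse 1 was highest for Masp2 at 4752, with the next at 3800. The mice in which F5 was highest in AM251/IDFP and in IDFP were also those in which F2 was lowest.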

How the results depend on the processing

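Under 10 alternative settings and the omission of each of 19 arrays, the call of Pros1 in AM251/IDFP vs. IDFP held throughout, and each of the other 5 member calls was lost in some settings. Without a detection filter, 1 member was called by limma in IDFP vs. DMSO and 1 in AM251/IDFP vs. DMSO. With only the 2 groups compared, 1 member and 450 of all genes were called in AM251/IDFP vs. DMSO. Same-numbered mice correlated with a mean r of 0.016 over 16 pairs, against -0.0025 over 102 pairs of different number. Of these, 5 of the 16 and 14 of the 102 were over 0.1. Both means were close to 0, but the values do not settle whether the replicate numbers pair the mice. With the replicate block, 1 member was called in IDFP vs. DMSO and 1 in AM251/IDFP vs. DMSO, and 525 of all genes in AM251/IDFP vs. IDFP. Without single arrays, the members called in IDFP vs. DMSO ranged from 0 (without DMSO mouse 5) to 5 (without DMSO mouse 6) and were 1 without IDFP mouse 2, 3 or 8 or DMSO mouse 4. In AM251/IDFP vs. IDFP they stayed at 1. In AM251/IDFP vs. DMSO they ranged from 0 (without AM251/IDFP mouse 2 or 4 or DMSO mouse 3 or 5) to 4 (without DMSO mouse 6) and were 1 without AM251/IDFP mouse 1 or 3 or DMSO mouse 2. All genes called ranged from 1048 to 1752 in IDFP vs. DMSO and from 661 (without AM251/IDFP mouse 3) to 1105 in AM251/IDFP vs. IDFP. In AM251/IDFP vs. DMSO they ranged from 438 (without DMSO mouse 3) to 1199, with 505 to 555 without AM251/IDFP mouse 2, 3 or 4 or DMSO mouse 4 or 5. The complement median minus the coagulation median ranged from -0.12 to -0.04 in IDFP vs. DMSO, from -0.0047 to 0.064 in AM251/IDFP vs. IDFP, and from -0.13 (without DMSO mouse 3) to -0.017 (without DMSO mouse 6) in AM251/IDFP vs. DMSO. Small uncalled changes turned sign, Proz between -0.034 and 0.092 in IDFP vs. DMSO, and Masp2 between -0.0038 and 0.094 in AM251/IDFP vs. IDFP and between -0.0029 and 0.079 in AM251/IDFP vs. DMSO, as did 29 other uncalled changes of members. The cause was not tested. The number of arrays limits the precision.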
